A study of Homo sapiens with 8 samples.

Results

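The proteasome subunit genes of LP-1, a human multiple myeloma cell line, were examined after 6 hr of treatment with a bromodomain inhibitor. SGC-CBP30 inhibits the bromodomains of the co-activators CBP and EP300 and was used at 2.5 μM, and CPI203 inhibits those of the BET family and was used at 250 nM. There were 8 RNA-seq libraries in 4 groups of 2, namely SGC-CBP30 with a DMSO pair of the same naming series and CPI203 with a second DMSO pair, so that the compounds share no control library. All libraries come from the 1 cell line in culture, and its response may not be that of other myeloma cells. Genes were chosen by symbol, as PSM followed by a letter from A to G and a number, and by level, with an average of 1 RPKM or more across all 8 libraries, where RPKM counts mapped reads relative to gene length and to the size of the library. Such a symbol was carried by 64 of the 63129 deposited rows, and 47 of them, with 46 symbols, reached that level. PSME3 lacked a value in 2 libraries, so 46 rows entered the test, among 14732 genes tested in all.

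The proteasome is the large protease that destroys ubiquitin-tagged proteins. Its barrel-shaped core consists of rings of alpha subunits (PSMA genes) around rings of beta subunits (PSMB genes), some of which carry the proteolytic sites, and a regulatory cap of base and lid subunits (PSMC and PSMD genes) binds, unfolds and feeds in the substrate. Lymphoid cells exchange the proteolytic subunits for the immunoproteasome forms PSMB8, PSMB9 and PSMB10, which favour peptides for HLA class I. Plasma cells make antibody at a high rate and are known for their dependence on the proteasome, the target of several myeloma drugs.

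The immunoproteasome genes fell with both compounds, PSMB8 and PSMB9 at least 1.5-fold with SGC-CBP30. The 4 chaperones that assemble the core fell with CPI203, PSMG3 and PSMG4 at least 1.5-fold, and of these only PSMG4 passed the test with SGC-CBP30. No constitutive subunit of the core or cap changed as much as 1.5-fold with either compound.

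The stretches of 250 bases before the annotated starts of PSMB8, PSMB9, PSMB10, PSME2, PSMG1 and PSMG4 are shown because these genes carry the results below. They are from RefSeq on GRCh38.p14, 5′ to 3′ on the strand of the gene, and capitals mark matches to 3 motifs searched on both strands. These were GAAA followed after any 2 bases by GAAA, the core of the interferon-stimulated response element, TGACNNNGC, the core of the antioxidant response element, and CCAAT, the NF-Y box. In these windows no match overlapped another. PSMB8 has 2 annotated starts, and the window of the upstream one is shown.
PSMB8, upstream start, chr6:32844680-32844929, minus strand: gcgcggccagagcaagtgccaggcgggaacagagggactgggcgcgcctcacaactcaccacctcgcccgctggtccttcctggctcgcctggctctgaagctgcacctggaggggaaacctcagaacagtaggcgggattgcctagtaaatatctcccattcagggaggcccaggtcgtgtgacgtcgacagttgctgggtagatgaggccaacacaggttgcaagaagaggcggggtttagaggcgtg
PSMB9, chr6:32853942-32854191, plus strand: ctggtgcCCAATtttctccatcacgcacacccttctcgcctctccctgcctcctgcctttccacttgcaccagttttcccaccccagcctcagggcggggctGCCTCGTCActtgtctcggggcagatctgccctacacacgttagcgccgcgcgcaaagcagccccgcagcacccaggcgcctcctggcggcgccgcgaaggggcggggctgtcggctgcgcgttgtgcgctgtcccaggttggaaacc
PSMB10, chr16:67936851-67937100, minus strand: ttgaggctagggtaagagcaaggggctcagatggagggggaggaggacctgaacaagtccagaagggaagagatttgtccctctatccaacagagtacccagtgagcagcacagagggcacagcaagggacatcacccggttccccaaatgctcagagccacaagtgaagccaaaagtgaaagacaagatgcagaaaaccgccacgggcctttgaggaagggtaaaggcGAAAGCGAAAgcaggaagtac
PSME2, chr14:24146611-24146860, minus strand: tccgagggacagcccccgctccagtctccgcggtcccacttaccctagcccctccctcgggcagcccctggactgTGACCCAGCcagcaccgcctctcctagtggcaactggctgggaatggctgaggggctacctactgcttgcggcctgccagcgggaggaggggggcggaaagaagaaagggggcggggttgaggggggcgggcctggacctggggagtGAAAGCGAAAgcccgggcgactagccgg
PSMG1, chr21:39183452-39183701, minus strand: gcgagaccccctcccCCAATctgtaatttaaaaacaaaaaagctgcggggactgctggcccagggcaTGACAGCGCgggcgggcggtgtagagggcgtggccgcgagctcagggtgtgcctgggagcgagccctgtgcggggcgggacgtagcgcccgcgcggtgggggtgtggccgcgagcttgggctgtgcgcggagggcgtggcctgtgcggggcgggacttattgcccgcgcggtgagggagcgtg
PSMG4, chr6:3258697-3258946, plus strand: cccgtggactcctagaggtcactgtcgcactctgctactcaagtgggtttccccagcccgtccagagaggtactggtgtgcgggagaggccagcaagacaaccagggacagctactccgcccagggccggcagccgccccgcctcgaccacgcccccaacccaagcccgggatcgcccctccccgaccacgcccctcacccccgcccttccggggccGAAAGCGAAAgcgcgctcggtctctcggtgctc

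The match to the interferon-stimulated core began 21 bases before the start of PSMB10, 28 bases before that of PSME2 and 33 bases before that of PSMG4. A window was found for 40 of the 46 symbols, not for PSMA7, PSMB1, PSMB6, PSMB7, PSMD4 and PSMG3, and 5 of the 40 held this motif (12.5%), against 3.71% of 27305 genes with a window. The other carriers were PSMA4 and PSMB4. The antioxidant core was found in 13 of the 40 (32.5%, against 13.2% of all) and CCAAT in 18 (45%, against 37%). CACGTG, the E-box that reads alike on both strands, was in 3 of the 40 (7.5%, against 7.73%). These are letter matches, and no binding was measured here.

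LP-1 expressed the constitutive subunits at high but unequal levels. Over the 4 DMSO libraries the 31 constitutive core and cap subunits, counted by symbol, had a median of 116 RPKM and ran from the base ATPase PSMC1, at 14.0 to 16.3 in single libraries, to 576 for the core subunit PSMB4, a 38.3-fold range. The immunoproteasome genes were within this range at 69.5 RPKM for PSMB9, 74.0 for PSMB8 and 116 for PSMB10. Assembly chaperones were lower, from 23.2 for PSMD5 and 23.7 for PSMG2 to 87.7 for PSMG1. PSMA8, the testis form of an alpha subunit, was listed at 0 in every library. PSMB11, the thymus form of a beta subunit, was listed at 0 except for 0.0203 RPKM in 1 CPI203 library. The other 15 rows under 1 RPKM were 14 copies of PSMB8 and PSMB9 on alternative haplotypes, all at 0, and a further PSMA1 row at 0 to 0.367 RPKM. The 7 plasma cell markers (SDC1, CD38, TNFRSF17, XBP1, PRDM1, IRF4, MZB1) were at 27.9 to 531 RPKM in DMSO and 19.5 or more in every library, and 5 markers of other cells (MS4A1, PAX5, CD3E, CD14, ALB) were at most 0.398. Several plasma cell markers moved with the compounds, and not all in the same direction. The log2 fold change was -2.397 for TNFRSF17 and -1.553 for SDC1 with CPI203 and -1.365 for IRF4 with SGC-CBP30. PRDM1 rose with CPI203 (0.364) and fell with SGC-CBP30 (-0.644), and SDC1 did not pass with SGC-CBP30 (0.140, limma adjusted p = 0.166). The part of these markers in the results was not tested. The depth, estimated from the steps of low values, was 26100000 to 50200000 reads, and the SGC-CBP30 libraries were the deepest at 50200000 and 46900000.

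The first comparison asked how the proteasome genes responded to CBP/EP300 bromodomain inhibition. With SGC-CBP30, 25 of the 46 rows passed the test (adjusted p under 0.05), or 54.3% against 40.4% of all genes tested. They were 22 that fell, 47.8% against 14.8% of all genes, and 3 that rose, 6.52% against 25.6%. In bulk RNA, fewer cells that express a gene and less of its RNA per cell cannot be told apart. Most changes were small. The median log2 fold change was -0.078, against 0.07 over all genes. Between a 10% rise and a fall of the same fold lay 31 rows. That was 67.4%, against 39.3% of all genes and 46.1% of genes averaging at least 10 RPKM. Only PSMB8 and PSMB9 passed at 1.5-fold or more (4.35%, against 7.26% of all genes, of which 3.79% fell and 3.47% rose). The share of calls depends on level. Among the 8298 genes averaging at least 10 RPKM, 4042 passed, 2471 higher and 1571 lower, and 329 passed at 1.5-fold or more. The summed RPKM of the 45 symbols with complete values was 5260 and 5370 in DMSO and 4850 and 4840 with SGC-CBP30.
The count depended on single libraries, being 13 without SGC-CBP30 replicate 1, 14 without SGC-CBP30 replicate 2 and 15 without DMSO replicate 2. With same-numbered libraries paired in a replicate block the count was 14, with 12 lower and 2 higher. Against all 4 DMSO libraries, which pool both experiments, 4 passed, and scaling to the library medians gave 28 lower and 2 higher. The share of all genes that passed at these changed settings is not reported here.

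The second comparison asked the same of BET bromodomain inhibition. With CPI203, 22 rows passed, or 47.8% against 64.2% of all genes tested. Of them 17 fell, 37.0% against 33.1% of all genes, and 5 rose, 10.9% against 31.1%. The median log2 fold change was -0.052, against -0.015 over all genes. Only PSMG3 and PSMG4 passed at 1.5-fold (4.35%, against 27.8% of all genes, of which 14.4% fell and 13.4% rose). Among the 8298 genes averaging at least 10 RPKM, 5917 passed, 2779 higher and 3138 lower, and 1836 passed at 1.5-fold or more. The summed RPKM of the 45 symbols was 4850 and 4900 in DMSO and 4720 and 4640 with CPI203. The effects of the compounds differed in 19 rows, 41.3% against 50.3% of all genes, 9 with the higher log2 fold change for SGC-CBP30 (29.3% of all genes) and 10 with the lower one (21% of all genes). At 1.5-fold only PSMG3 and PSMG4 differed, both higher for SGC-CBP30 (24.5% of all genes, 14.8% higher and 9.68% lower). The plot of log2 fold changes shows each gene by its place in the complex.

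**Figure D1:**
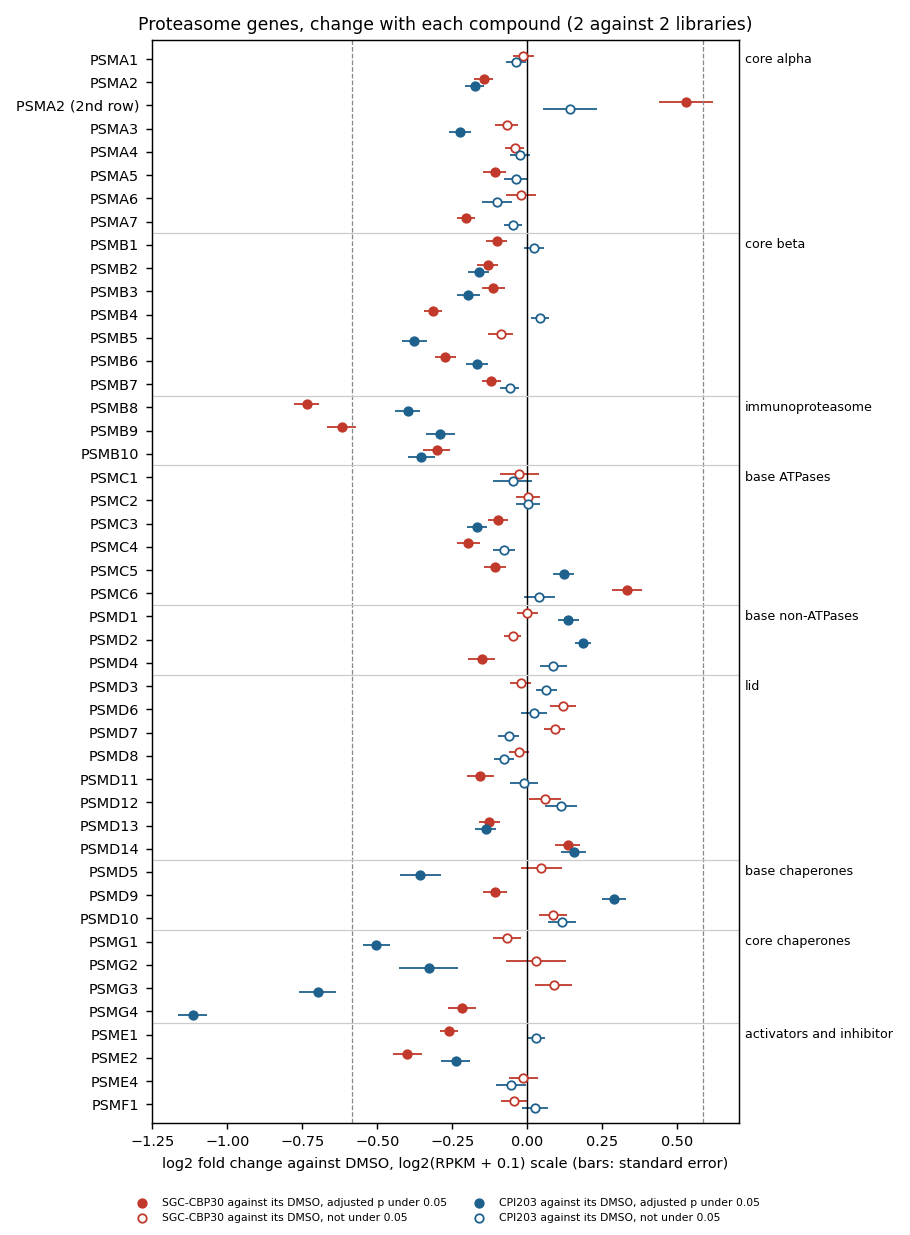
log2 fold change of each tested proteasome gene with SGC-CBP30 (red) and CPI203 (blue) against its own DMSO pair, with bars for the standard error, filled points for an adjusted p under 0.05 and dashed lines at 1.5-fold. PSMB8 and PSMB9 lie beyond the left line with SGC-CBP30 and PSMG3 and PSMG4 with CPI203, while all constitutive subunits lie between the lines.

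The immunoproteasome genes fell in all 6 comparisons of a gene with its DMSO. All 3 passed lower with SGC-CBP30 (100%, against 14.8% of all genes) and with CPI203 (100%, against 33.1%). PSMB8, the chymotrypsin-like immunoproteasome subunit (hg19 chr6:32808493-32812480), was at 83.4 and 86.3 RPKM in DMSO and at 50.7 and 51.2 with SGC-CBP30. In the CPI203 experiment it was at 65.2 and 61.3 RPKM in DMSO and at 47.7 and 48.2 with CPI203. Treated and DMSO libraries were apart in both experiments. The log2 fold change was -0.735 with SGC-CBP30 (SE 0.042, limma adjusted p = 2.73e-06) and -0.398 with CPI203 (SE 0.042, adjusted p = 2.02e-05).

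PSMB9, the subunit that takes the place of the caspase-like PSMB6 (hg19 chr6:32811912-32827362), gave the same order. It was at 79.7 and 83.1 RPKM in DMSO and at 53.9 and 52.0 with SGC-CBP30, a log2 fold change of -0.619 (SE 0.049, adjusted p = 2.13e-05). In the CPI203 experiment it went from 58.8 and 56.4 RPKM to 49.0 and 45.2, a log2 fold change of -0.290 (SE 0.049, adjusted p = 0.000522). The fall was larger with SGC-CBP30 than with CPI203, with a difference in log2 fold change of -0.337 for PSMB8 (SE 0.059, adjusted p = 0.0011) and -0.330 for PSMB9 (SE 0.069, adjusted p = 0.00316).

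This difference coincided with unequal starting levels. The DMSO pair of the CPI203 experiment was below that of the SGC-CBP30 experiment, with a log2 difference of -0.423 for PSMB8 and -0.498 for PSMB9, while the 4 treated libraries lay between 47.7 and 51.2 RPKM for PSMB8 and between 45.2 and 53.9 for PSMB9. Over the 46 rows the DMSO pairs did not overlap in 38 (71.3% of all genes tested had pairs apart), 25 of them lower (35.1% of all) and 13 higher (36.2%) in the CPI203 experiment. Against all 4 DMSO libraries, PSMB8 passed with both compounds (log2 fold change -0.523 and adjusted p = 0.0435 with SGC-CBP30), and PSMB9 no longer passed with SGC-CBP30 (-0.370, adjusted p = 0.158).

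PSMB10, the trypsin-like immunoproteasome subunit on chromosome 16, fell with both compounds. It was at 119 and 124 RPKM in DMSO and at 98.5 and 98.7 with SGC-CBP30 (log2 fold change -0.302, SE 0.044, adjusted p = 0.000701). With CPI203 it went from 114 and 106 RPKM to 84.3 and 88.0 (-0.353, SE 0.044, adjusted p = 6.33e-05). The effects differed by 0.050 on the log2 scale (SE 0.062, adjusted p = 0.525). Against all 4 DMSO libraries the change with SGC-CBP30 was -0.230 (adjusted p = 0.0541).

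Of the constitutive subunits that these genes replace, PSMB5 fell with CPI203, PSMB7 with SGC-CBP30 and PSMB6 with both. PSMB5, the chymotrypsin-like subunit, was at 86.4 and 91.0 RPKM in DMSO and at 84.5 and 82.4 with SGC-CBP30, which did not pass (-0.088, SE 0.042, adjusted p = 0.125). With CPI203 it fell from 89.1 and 84.2 RPKM to 67.1 and 66.3 (-0.376, SE 0.042, adjusted p = 3.07e-05), the largest fall of a constitutive subunit with that compound. The effects on PSMB5 differed between the compounds (0.288, SE 0.059, adjusted p = 0.00282). PSMB6 was at 248 and 263 RPKM in DMSO and at 213 and 210 with SGC-CBP30 (-0.273, adjusted p = 0.000393), and went from 221 and 217 RPKM to 199 and 192 with CPI203 (-0.167, adjusted p = 0.00228). PSMB7, the trypsin-like subunit, was at 173 and 172 RPKM in DMSO and at 157 and 161 with SGC-CBP30 (-0.120, adjusted p = 0.0126). It was at 164 and 167 RPKM in the other DMSO pair and at 161 and 157 with CPI203 (-0.059, adjusted p = 0.122). With SGC-CBP30 neither PSMB6 (-0.163, adjusted p = 0.2) nor PSMB7 (-0.090, adjusted p = 0.185) passed against all 4 DMSO libraries, and PSMB7 no longer passed without DMSO replicate 1 (adjusted p = 0.0597) or SGC-CBP30 replicate 1 (adjusted p = 0.0885).

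The share of each immunoproteasome transcript in its pair with the constitutive subunit shows how these changes combine. PSMB8 made up 49.1 and 48.7% of the summed PSMB8 and PSMB5 RPKM in DMSO and 37.5 and 38.3% with SGC-CBP30. In the CPI203 experiment, where both genes fell, the PSMB8 share was 42.3 and 42.1% in DMSO and 41.5 and 42.1% with CPI203. The PSMB9 share against PSMB6 went from 24.3 and 24.0% to 20.2 and 19.9% with SGC-CBP30 and from 21.0 and 20.6% to 19.8 and 19.1% with CPI203. The PSMB10 share against PSMB7 went from 40.8 and 42.0% to 38.6 and 38.1% with SGC-CBP30 and from 41.1 and 38.8% to 34.4 and 35.9% with CPI203. Treated libraries were below both DMSO libraries in 5 of these 6 comparisons, and for the PSMB8 share with CPI203 they overlapped, with 1 treated and 1 DMSO library at the same 42.1%. By RPKM, both treated libraries were below both DMSO libraries in 28 of the 46 proteasome rows with SGC-CBP30 and 23 with CPI203. Such a count over all genes is not reported here. The shares are a description, and no test was run on them.

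**Figure D2:**
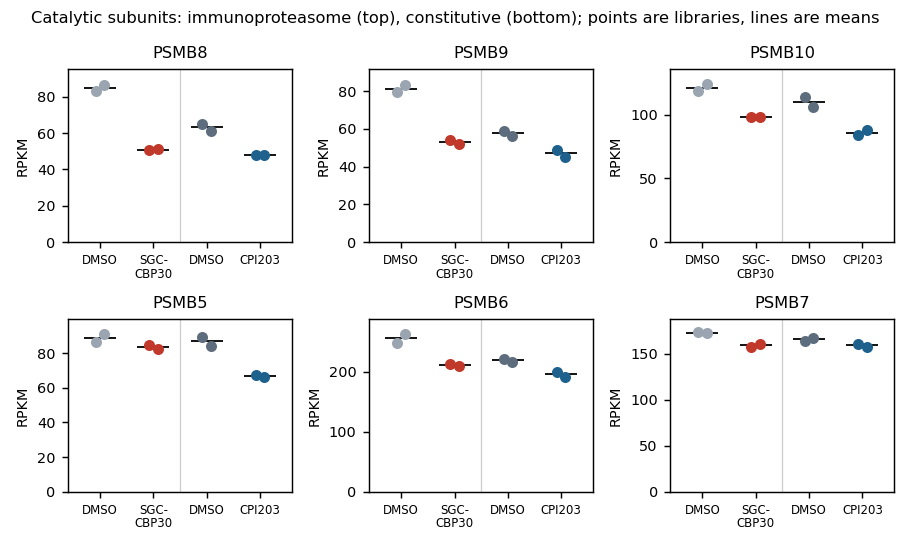
RPKM of the 3 immunoproteasome genes (top) and the 3 constitutive proteolytic subunits (bottom) in each of the 8 libraries, with points for libraries and lines for group means. PSMB8 and PSMB9 drop with both compounds to 45.2 to 53.9 RPKM from DMSO levels that differ between the experiments, and PSMB5 drops with CPI203 to 67.1 and 66.3 RPKM.

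The loci of the immunoproteasome genes overlap others in the deposited annotation, and whether reads were counted by strand is not stated in the sources used here. PSMB8 and PSMB9 share 569 bases, the PSMB9 interval holds all 8771 bases of TAP1, and TAP2 lies 1935 bases from PSMB8. TAP1, a subunit of the transporter that brings peptides to HLA class I, fell with SGC-CBP30 (62.2 and 63.6 to 41.5 and 39.8 RPKM, log2 fold change -0.629, adjusted p = 5.13e-06). With CPI203 it was at 53.8 and 54.4 RPKM against 51.6 and 50.5 (0.083, adjusted p = 0.092), and the difference between the compounds passed (-0.713, SE 0.056, adjusted p = 7.9e-06). PSMB10 shares 1517 bases with CTC-479C5.12, which had a mean of 6.16 RPKM against 104.14 for PSMB10 and whose own log2 fold changes were -0.207 (adjusted p = 0.4) for SGC-CBP30 and -1.721 (adjusted p = 2.23e-05) for CPI203. XXbac-BPG246D15.8, with a mean of 11.56 RPKM, shares 619 bases with PSMB8 and 2361 with PSMB9 and fell with both compounds (-0.402, adjusted p = 0.00911, and -0.974, adjusted p = 1.33e-05). The part of shared reads in these values was not tested. Of the 47 proteasome rows, 18 shared at least 100 bases with another expressed gene.

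Of 7 rows for genes of peptide supply and its regulators (TAP1, TAP2, TAPBP, NLRC5, IRF1, CIITA), 6 passed lower with SGC-CBP30 (85.7%, against 14.8% of all genes) and none higher, and with CPI203 3 passed lower (42.9%, against 33.1%) and 1 higher (14.3%, against 31.1%). TAPBP, the tapasin gene, was at 117 and 113 RPKM in DMSO and at 85.9 and 79.7 with SGC-CBP30 (-0.471, adjusted p = 0.000218). The main TAP2 row fell with both compounds (-0.323, adjusted p = 0.000678, and -0.282, adjusted p = 0.000439). NLRC5, the class I transactivator, was at 12.3 and 13.0 RPKM in DMSO and at 7.68 and 8.74 with SGC-CBP30 (-0.624, adjusted p = 0.00392), and at 8.67 and 10.1 in the other DMSO pair and 8.85 and 6.81 with CPI203 (-0.266, adjusted p = 0.0904). CIITA, the class II transactivator, fell with both, from 53.3 and 52.2 to 13.9 and 13.0 RPKM with SGC-CBP30 and from 17.1 and 14.4 to 2.95 and 2.76 RPKM with CPI203. IRF1, an interferon-response factor, rose with CPI203 (3.92 and 3.99 to 6.11 and 5.51 RPKM, adjusted p = 0.00396) and did not pass with SGC-CBP30 (-0.352, adjusted p = 0.051). The change with SGC-CBP30 no longer passed against all 4 DMSO libraries for CIITA (-1.091, adjusted p = 0.204), NLRC5 (-0.407, adjusted p = 0.16) and the main TAP2 row (-0.163, adjusted p = 0.34).

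The core chaperones had the lowest median of the proteasome groups with CPI203, a log2 fold change of -0.601. All 4 passed lower (100%, against 33.1% of all genes). PSMG3 and PSMG4 form a complex that helps build the alpha ring, as do PSMG1 and PSMG2. PSMG4 was at 47.4 and 46.8 RPKM in DMSO and at 22.2 and 21.2 with CPI203 (-1.116, SE 0.047, adjusted p = 6.02e-08). With SGC-CBP30 it was at 38.2 and 36.3 RPKM against 44.0 and 42.7 (-0.217, SE 0.047, adjusted p = 0.00559, and 0.0554 without SGC-CBP30 replicate 2). The treated pair was below its DMSO pair in each experiment, by far more with CPI203.

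PSMG3 was at 32.7 and 31.2 RPKM in DMSO and at 20.0 and 19.3 with CPI203 (-0.699, SE 0.061, adjusted p = 5.5e-06). With SGC-CBP30 its 41.8 and 39.4 RPKM overlapped the 36.2 and 40.3 of DMSO (0.088, SE 0.061, adjusted p = 0.276). PSMG1 was at 82.3 and 88.2 RPKM in DMSO and at 62.0 and 58.2 with CPI203 (-0.503, SE 0.046, adjusted p = 7.37e-06), and at 85.6 and 86.2 RPKM with SGC-CBP30 against 88.8 and 91.3 (-0.068, SE 0.046, adjusted p = 0.266). These genes fell with CPI203 well beyond the spread of their replicates.

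PSMG2 was less certain. It was at 21.2 and 26.2 RPKM in DMSO and at 17.3 and 20.3 with CPI203 (-0.329, SE 0.099, adjusted p = 0.0145), and it no longer passed without DMSO replicate 2 (-0.179, adjusted p = 0.12) or without CPI203 replicate 1 (-0.216, adjusted p = 0.116). With SGC-CBP30 it was at 23.8 and 24.6 RPKM against 23.4 and 24.1 (0.029, adjusted p = 0.841). The effects of the compounds differed for PSMG4 (0.899, SE 0.066, adjusted p = 5.42e-06), PSMG3 (0.787, SE 0.086, adjusted p = 5.77e-05) and PSMG1 (0.435, SE 0.065, adjusted p = 0.000397), and for PSMG2 the test of the difference gave an adjusted p of 0.0565. The summed RPKM of the 4 genes was 184 and 192 in DMSO and 122 and 119 with CPI203, 36.0% lower, against 3.76% lower with SGC-CBP30.

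PSMG4 shares 329 bases with TUBB2B and an interval with SLC22A23, and both of these passed higher with CPI203 (0.427, adjusted p = 0.001, and 0.797, adjusted p = 0.00495). PSMG2 shares its interval with RP11-973H7.2, which has the higher level of the 2, with a mean of 35.29 RPKM against 22.61, and fell as well (-0.275, adjusted p = 0.000925). POMP, a chaperone of core maturation, rose slightly with CPI203, from 58.6 and 62.5 RPKM to 67.8 and 65.4 (0.138, SE 0.044, adjusted p = 0.0195). With SGC-CBP30 it was at 54.4 and 56.2 RPKM against 56.4 and 57.1 (-0.038, adjusted p = 0.521).

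The base chaperones, which hold the ATPases until the cap is built, went in different directions with CPI203. PSMD5 fell from 23.3 and 24.8 RPKM to 17.7 and 19.9 (-0.357, SE 0.068, adjusted p = 0.00112), and PSMD9 rose from 62.7 and 59.4 RPKM to 74.5 and 74.7 (0.289, SE 0.039, adjusted p = 0.000106). PSMD10, also called gankyrin, was at 43.2 and 45.8 RPKM in DMSO and at 49.0 and 47.3 with CPI203 (0.115, adjusted p = 0.0546). With SGC-CBP30 the log2 fold changes were 0.047 for PSMD5, 0.086 for PSMD10 and -0.107 for PSMD9 (66.2 and 66.2 RPKM against 72.0 and 70.7, adjusted p = 0.0497). The PSMD9 change with SGC-CBP30 no longer passed when any library of that experiment was left out (adjusted p = 0.101 to 0.182) and was 0.005 against all 4 DMSO libraries. The effects of the compounds differed for PSMD5 (0.404, SE 0.096, adjusted p = 0.00622) and for PSMD9 (-0.396, SE 0.054, adjusted p = 0.000247). Against all 4 DMSO libraries PSMD9 no longer passed with CPI203 (0.176), and PSMD5 overlaps its antisense gene PSMD5-AS1 over 18158 bases.

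**Figure D3:**
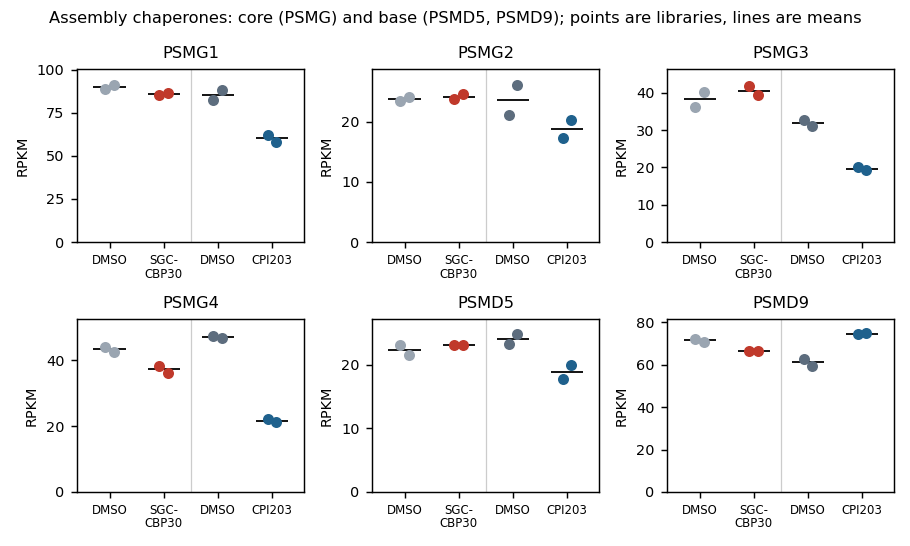
RPKM of the core chaperones PSMG1 to PSMG4 and the base chaperones PSMD5 and PSMD9 in each library, with lines for group means. With CPI203 both libraries of PSMG1, PSMG2, PSMG3, PSMG4 and PSMD5 are below both DMSO libraries and those of PSMD9 are above, whereas with SGC-CBP30 PSMG4 moves only from 44.0 and 42.7 to 38.2 and 36.3 RPKM.

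In the alpha rings 3 of 8 rows passed lower with SGC-CBP30 (37.5%, against 14.8% of all genes) and 1 higher (12.5%, against 25.6%), and 2 passed lower with CPI203 (25.0%, against 33.1%) and none higher. PSMA7, the most abundant alpha subunit, fell with SGC-CBP30 from 292 and 297 RPKM to 256 and 255 (-0.205, SE 0.03, adjusted p = 0.000703) and did not pass with CPI203 (251 and 250 RPKM to 237 and 247). The PSMA7 change with SGC-CBP30 did not pass against all 4 DMSO libraries (-0.089, adjusted p = 0.475). PSMA3 fell with CPI203 from 139 and 144 RPKM to 124 and 118 (-0.225, SE 0.037, adjusted p = 0.000426). The row that passed higher with SGC-CBP30 was a second PSMA2 row (7.39 and 7.57 to 10.9 and 10.7 RPKM, 0.528, adjusted p = 0.00169, and 0.0545 against all 4 DMSO libraries), which shares 15315 bases with the main PSMA2 row. The main row was lower with both compounds (111 and 114 to 102 and 101 RPKM, and 117 and 118 to 105 and 103). PSMA1 and PSMA4 passed with neither compound, with log2 fold changes between -0.042 and -0.013.

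In the beta rings 6 of 7 constitutive genes passed lower with SGC-CBP30 (85.7%, against 14.8% of all genes) and 4 with CPI203 (57.1%, against 33.1%), and none passed higher. PSMB4, a non-proteolytic beta subunit and the most abundant gene of the complex, had the largest fall with SGC-CBP30, from 633 and 658 RPKM to 518 and 520 (-0.314, SE 0.029, adjusted p = 5.68e-05). With CPI203 it was at 530 and 512 RPKM against 503 and 509 (0.042, adjusted p = 0.236), and the effects differed (-0.356, SE 0.041, adjusted p = 8.54e-05). The PSMB4 level with SGC-CBP30 was close to that of all 4 libraries of the CPI203 experiment, and against all 4 DMSO libraries it did not pass (-0.138, adjusted p = 0.432). The summed RPKM of the 7 beta genes was 1480 and 1530 in DMSO and 1290 and 1280 with SGC-CBP30, and 1310 and 1310 in DMSO and 1270 and 1230 with CPI203.

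The 17 subunits of the regulatory cap chosen by PSM symbol summed to 1750 and 1790 RPKM in DMSO and 1710 and 1720 with SGC-CBP30, and to 1660 and 1680 in DMSO and 1710 and 1680 with CPI203. Cap genes with other symbols, such as ADRM1, were counted in the partner list below. With SGC-CBP30 6 of the 17 passed lower (35.3%, against 14.8% of all genes) and 2 higher (11.8%, against 25.6%), and with CPI203 2 passed lower (11.8%, against 33.1%) and 4 higher (23.5%, against 31.1%). The largest change was that of the base ATPase PSMC6, which rose with SGC-CBP30 from 27.1 and 26.1 RPKM to 32.4 and 34.7 (0.332, SE 0.051, adjusted p = 0.000976) and did not pass with CPI203 (29.9 and 28.7 RPKM to 30.2 and 30.1).

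Of the other ATPases, PSMC4 fell with SGC-CBP30 (89.3 and 94.2 to 80.4 and 79.7 RPKM, adjusted p = 0.00292) and PSMC3 with CPI203 (106 and 107 to 96.8 and 93.3 RPKM, adjusted p = 0.0013). PSMC3 also passed lower with SGC-CBP30 (131 and 131 to 123 and 122 RPKM, -0.097, adjusted p = 0.0387). That PSMC3 call was lost when any library of that experiment was left out (adjusted p = 0.111 to 0.153). Against all 4 DMSO libraries the PSMC3 value was 0.050 (adjusted p = 0.758). PSMC4 did not pass against all 4 DMSO libraries (-0.045, adjusted p = 0.794). The log2 fold changes of PSMC5 were -0.108 (adjusted p = 0.0399) for SGC-CBP30 and 0.121 (adjusted p = 0.0151) for CPI203. Neither call was kept against all 4 DMSO libraries (-0.034, adjusted p = 0.74, and 0.047, adjusted p = 0.548). The first was lost without DMSO replicate 2 (-0.071, adjusted p = 0.235), SGC-CBP30 replicate 1 (0.169) or SGC-CBP30 replicate 2 (0.1), and the second without DMSO replicate 1 (0.0638) or CPI203 replicate 1 (0.103). The 3 non-ATPase base subunits differed between the compounds, each having the lower log2 fold change with SGC-CBP30 (100%, against 21% of all genes). The difference was -0.235 for PSMD2 (adjusted p = 0.000738), -0.238 for PSMD4 (adjusted p = 0.0111) and -0.136 for PSMD1 (adjusted p = 0.0452). The scaffold subunit PSMD2 rose with CPI203 from 190 and 193 RPKM to 217 and 219 (0.187, SE 0.027, adjusted p = 0.000201) and was at 204 and 205 RPKM against 212 and 212 with SGC-CBP30 (-0.049, adjusted p = 0.184). PSMD2 shares 10347 bases with EIF2B5, which had a mean of 57.06 RPKM and fell with CPI203 (-0.345, adjusted p = 0.00014). PSMD1, the other scaffold subunit, rose with CPI203 (0.136, adjusted p = 0.00683, and 0.058 without CPI203 replicate 1). Neither scaffold subunit passed with CPI203 against all 4 DMSO libraries (0.115, adjusted p = 0.123, for PSMD2 and 0.115, adjusted p = 0.0569, for PSMD1). The ubiquitin receptor PSMD4 was at -0.152 on the log2 scale with SGC-CBP30 (adjusted p = 0.0227), which no longer passed without DMSO replicate 2 (-0.090, adjusted p = 0.164), SGC-CBP30 replicate 1 (adjusted p = 0.0654) or SGC-CBP30 replicate 2 (adjusted p = 0.111), or against all 4 DMSO libraries (-0.105, adjusted p = 0.242).

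In the lid PSMD14, the deubiquitinase, was at 43.7 and 42.7 RPKM in DMSO and 46.7 and 48.1 with SGC-CBP30 (0.135, adjusted p = 0.0297), and at 44.6 and 46.9 RPKM in DMSO and 50.6 and 51.3 with CPI203 (0.155, adjusted p = 0.00916). The first change no longer passed when any library of that experiment was left out (adjusted p = 0.0643 to 0.167), with median scaling (0.059, adjusted p = 0.283) or against all 4 DMSO libraries (0.094, adjusted p = 0.266), and the second without DMSO replicate 1 (0.118, adjusted p = 0.0632). PSMD13 fell with CPI203 (-0.139, adjusted p = 0.00669). Its change with SGC-CBP30 was -0.126 (adjusted p = 0.0195), and it did not pass with quantile normalization (-0.018, adjusted p = 0.685) or without DMSO replicate 2 (adjusted p = 0.137), SGC-CBP30 replicate 1 (adjusted p = 0.0583) or SGC-CBP30 replicate 2 (adjusted p = 0.107). PSMD11 was at -0.156 with SGC-CBP30 (adjusted p = 0.0241), and it did not pass without DMSO replicate 1 (adjusted p = 0.125) or SGC-CBP30 replicate 1 (adjusted p = 0.156), or against all 4 DMSO libraries (-0.064, adjusted p = 0.587). The other 5 lid subunits passed with neither compound, their log2 fold changes lying between -0.077 and 0.118.

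The activators and the inhibitor bind the ends of the core. PSME1 and PSME2, the subunits of the interferon-inducible activator, lie 4396 bases apart on chromosome 14. PSME2 fell with both compounds, from 52.4 and 52.9 RPKM to 41.1 and 38.7 with SGC-CBP30 (-0.400, SE 0.049, adjusted p = 0.000266) and from 43.1 and 41.1 RPKM to 34.7 and 36.6 with CPI203 (-0.239, SE 0.049, adjusted p = 0.00172). PSME1 fell with SGC-CBP30 from 128 and 128 RPKM to 107 and 107 (-0.261, SE 0.03, adjusted p = 0.000208), and with CPI203 it was at 118 and 116 RPKM against 114 and 115 (0.030, adjusted p = 0.406). Both partners fell with SGC-CBP30 and PSME2 with CPI203. The difference between the compounds passed for PSME1 (-0.291, SE 0.043, adjusted p = 0.000386) and not for PSME2 (-0.161, SE 0.069, adjusted p = 0.0778). Against all 4 DMSO libraries neither passed with SGC-CBP30 (-0.179, adjusted p = 0.0968, and -0.239, adjusted p = 0.183).

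PSME3, the nuclear activator, had no value in DMSO replicate 1 of the SGC-CBP30 experiment and DMSO replicate 2 of the CPI203 experiment. Its levels were 124 RPKM in the remaining DMSO library and 123 and 119 with SGC-CBP30, and 128 in DMSO and 103 and 99.9 with CPI203. A fit that kept it, dropping those 2 libraries, gave -0.035 with SGC-CBP30 (adjusted p = 0.574) and -0.334 with CPI203 (SE 0.045, adjusted p = 0.00033), with the lone DMSO library assumed to vary like the other groups. PSME4, an activator with nuclear roles, was at 32.1 to 36.0 RPKM in all 8 libraries and passed with neither compound. PSMF1, an inhibitor of the core, passed with neither compound (124 and 118 RPKM against 124 and 126, and 92.3 and 96.5 against 95.5 and 90.1), although the log2 difference between its DMSO pairs was -0.428.

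**Figure D4:**
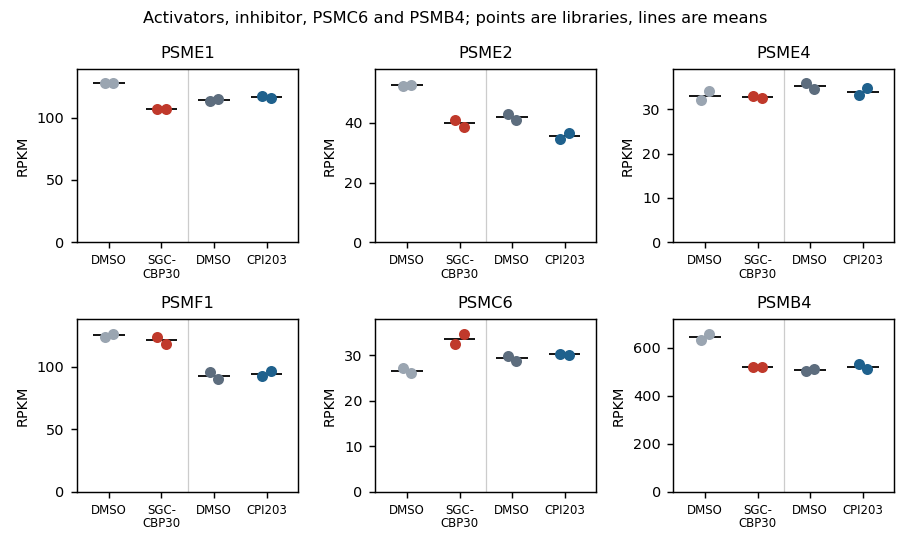
RPKM of the activators PSME1, PSME2 and PSME4, the inhibitor PSMF1, the base ATPase PSMC6 and the core subunit PSMB4 in each library, with lines for group means. PSME1, PSME2 and PSMB4 are lower and PSMC6 is higher with SGC-CBP30, and for PSMF1 and PSMB4 the DMSO pairs of the experiments are farther apart than CPI203 and its DMSO.

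Beside the subunits, 31 genes that work with the proteasome were counted as 1 list, covering associated subunits, ubiquitin and its shuttles, the unfolding ATPase VCP and the factors that regulate proteasome genes. With SGC-CBP30 6 passed higher (19.4%, against 25.6% of all genes) and 8 lower (25.8%, against 14.8%), together 45.2% against 40.4%. With CPI203 13 passed higher (41.9%, against 31.1% of all genes) and 9 lower, together 71.0% against 64.2%. The share of the list that passed lower with CPI203 was below the 33.1% of all genes. SQSTM1, a ubiquitin receptor of autophagy, rose most with both, from 208 and 203 RPKM to 324 and 309 with SGC-CBP30 (0.622, SE 0.032, adjusted p = 1.48e-06) and from 164 and 160 RPKM to 485 and 486 with CPI203 (1.583, SE 0.032, adjusted p = 9.4e-10). NGLY1, the glycanase that processes the proteasome gene activator NFE2L1, fell with CPI203 from 88.2 and 88.9 RPKM to 46.8 and 47.5 (-0.908, SE 0.035, adjusted p = 4.01e-08). With SGC-CBP30 NGLY1 went from 55.4 and 55.6 RPKM to 46.0 and 45.9 (-0.272, adjusted p = 0.000375). The treated levels of NGLY1 lay between 45.9 and 47.5 RPKM in both experiments, and the DMSO pairs were apart. Against all 4 DMSO libraries the log2 fold change of NGLY1 was -0.609 with SGC-CBP30 (adjusted p = 0.0907) and -0.571 with CPI203 (adjusted p = 0.0495), the latter under 1.5-fold.

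NFE2L2, the activator of the antioxidant response, rose with CPI203 from 24.7 and 26.5 RPKM to 38.0 and 38.8 (0.585, SE 0.064, adjusted p = 2.77e-05) and NFE2L1 itself from 70.3 and 72.6 RPKM to 91.4 and 88.0 (0.327, adjusted p = 4.22e-05). NFE2L1 was lower with SGC-CBP30 (-0.119, adjusted p = 0.0328). NFE2L2 passed higher with SGC-CBP30 (0.212, adjusted p = 0.0257). That NFE2L2 call was lost under 7 other settings, among them median scaling (0.136, adjusted p = 0.117). VCP, which extracts and unfolds substrates, rose with CPI203 from 121 and 118 RPKM to 171 and 177 (0.541, SE 0.033, adjusted p = 5.69e-07) and did not pass with SGC-CBP30 (-0.030, adjusted p = 0.502). UCHL5, a deubiquitinase of the cap, fell with CPI203 from 162 and 170 RPKM to 123 and 121 (-0.439, adjusted p = 5.47e-06) and was slightly higher with SGC-CBP30 (0.120, adjusted p = 0.0316). Its binding partner ADRM1, a ubiquitin receptor of the cap, fell with SGC-CBP30 (215 and 217 to 181 and 172 RPKM, -0.291, adjusted p = 0.00113) and did not pass with CPI203 (-0.094, adjusted p = 0.1). Of the list, SQSTM1 with both compounds and NGLY1 with CPI203 passed at 1.5-fold, and NFE2L2 with CPI203 lay just under that line.

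**Figure D5:**
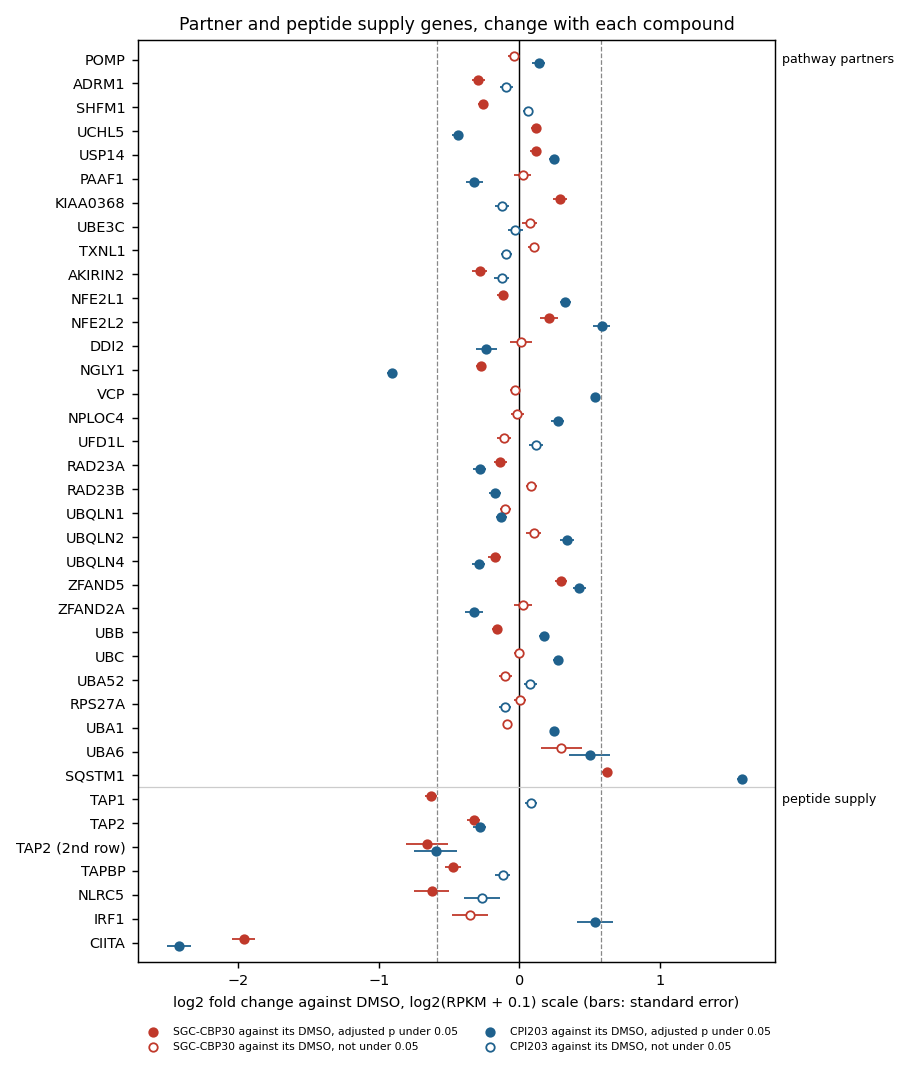
log2 fold change of the 31 partner genes and the 7 rows of peptide supply genes with SGC-CBP30 (red) and CPI203 (blue) against its own DMSO pair, with bars for the standard error, filled points for an adjusted p under 0.05 and dashed lines at 1.5-fold. SQSTM1 rises with both compounds, NGLY1 and VCP move in opposite directions with CPI203, TAP1 falls with SGC-CBP30, and CIITA falls with both.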

How the data were processed

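RNA-seq of 8 LP-1 libraries was analysed from the RPKM values, 1 per gene and library, that the authors deposited, as made by a sequencing provider. The submitters' processing notes name TopHat 1.4.1, Cufflinks and hg19. How reads were assigned to overlapping genes or strands is not given in the sources used here, and 24 other per-sample columns of the table were not used. Each DMSO pair was set against the compound whose labels carry the same naming series.

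Values were converted to log2(RPKM + 0.1), and the 14732 complete rows averaging 1 RPKM or more were tested with limma 3.58.1 in R 4.3.3. The fit had 4 group means over the 8 libraries and an intensity trend, with Benjamini-Hochberg adjustment across every gene tested. The fit was also run on simulated data, and the outcome of that run is not reported here. A fold change is on the log2(RPKM + 0.1) scale and understates changes of low genes. Depth is an estimate, since 61.9% to 73.2% of low values were whole reads within 0.1 read.

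The proteasome genes, the partner and peptide supply lists, the motifs and the naming rule were chosen with earlier results of these data known. The rule named the proteolytic subunits, the activators and the inhibitor, the extremes of each group, genes passing at 1.5-fold and the peptide supply list, of which some results are not reported here. PSMG1, PSMA1, PSMA4, the main PSMA2 row, POMP, NFE2L1, NFE2L2, VCP, UCHL5 and ADRM1 were added after their values were seen. Promoter windows were matched by symbol, and gene positions (hg19) and windows (GRCh38.p14) were not combined. Protein sequences were not used here. Alternatives were other pseudocounts, filters, scalings and controls, a replicate block, no trend and leaving out each library.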

Additional observations from a re-analysis of the deposited data

Results flagged for a closer look

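The effects of the compounds on 2 core chaperones differed in the test of the difference itself and reached 1.5-fold. For PSMG3 the log2 fold change was 0.088 with SGC-CBP30 and -0.699 with CPI203, a difference of 0.787 (adjusted p = 5.77e-05). For PSMG4 it was -0.217 with SGC-CBP30 and -1.116 with CPI203, a difference of 0.899 (adjusted p = 5.42e-06). In both cases the CPI203 libraries were below their DMSO libraries in 2 of 2, and for PSMG4 so were the SGC-CBP30 libraries. The doses were 2.5 μM and 250 nM, so the size of the difference holds for these doses.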

How the results depend on the processing

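The number of proteasome genes passing with SGC-CBP30, counted anew over the 46 at each setting and 25 in the report, was 16 without a filter on low values, 15 with quantile normalization (5 higher, 10 lower), 4 with all 4 DMSO libraries as controls and 13 without the intensity trend, and 13 to 26 when each library was left out in turn. The paper describes its DMSO controls as paired, and the main fit used no pairing. The labels share only the replicate number, and same-numbered libraries deviated with r = -0.172 in the SGC-CBP30 experiment and -0.039 in the CPI203 experiment over 8298 genes. With the replicate block the counts were 14 with SGC-CBP30, 22 with CPI203 and 17 for the difference. With the crossed pairing of the SGC-CBP30 experiment, chosen after seeing the data, they were 20 with SGC-CBP30 and 17 for the difference. The number passing with CPI203, 22 in the report, was 18 to 27 under the other settings and 19 to 23 with a library left out, and that of the difference, 19 in the report, was 14 to 23 and 15 to 19. For these settings the share of all genes that passed is not reported here, so the counts cannot be set against it. At 1.5-fold 2 passed in each comparison. Over the 29 genes sharing under 100 bases with another expressed gene, chosen after seeing the data, 15 passed with SGC-CBP30 (51.7%, against 40.4% of all genes), 8 with CPI203 (27.6%, against 64.2%) and 8 for the difference (27.6%, against 50.3%).

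Changes that turned their sign were all small. Using all 4 DMSO libraries pools the pairs of both experiments, which did not overlap in 71.3% of all genes tested. Values from that setting therefore also hold the difference between those pairs. With all 4 DMSO libraries as controls the log2 fold changes with CPI203 were -0.134 for PSMB4, -0.052 for PSME1, -0.189 for PSMF1 and -0.067 for TAP1, and those with SGC-CBP30 were 0.050 for PSMC3, 0.023 for PSMD2, -0.008 for PSMD5, 0.005 for PSMD9, -0.018 for PSMD10 and 0.170 for PSMF1. With quantile normalization they were 0.006 for PSMB7 and 0.048 for PSMD11 with CPI203, and 0.048 for PSMD2, -0.005 for PSMD5, -0.020 for PSMG2 and 0.048 for PSMF1 with SGC-CBP30. Median scaling gave -0.076 for PSMD1, -0.029 for PSMD5 and -0.048 for PSMG2 with SGC-CBP30. With each library left out, the ranges with SGC-CBP30 were -0.019 to 0.019 for PSMD1, -0.003 to 0.097 for PSMD5 and -0.057 to 0.031 for PSME4, and with CPI203 -0.052 to 0.031 for PSMD11 and -0.017 to 0.068 for PSMF1. The cause was not tested. Among single genes 1184 values kept direction and side of the threshold, 102 no longer passed, 13 newly passed and 27 turned. Of the proteasome rows rerun gene by gene, PSMB8 and PSMC6 with SGC-CBP30 passed under every setting run. With CPI203 PSMB5, PSMB6, PSMB8, PSMB9, PSMB10, PSME2, PSMG3 and PSMG4 did so. The same held with CPI203 for PSMA3, the main PSMA2 row, PSMC3, PSMD5 and PSMD13. With 2 libraries a group, the smallest exact permutation p of a single comparison is 0.333, and limma combines the spread of each gene with that shared over genes.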
